A study of Mus musculus with 21 samples.

Results

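The 5 genes described here encode enzymes that remove methyl groups from lysine 4 of histone H3 (H3K4): Kdm1a, Kdm1b, Kdm5a, Kdm5b and Kdm5c. They were taken by name from a table of 24984 mouse genes, and all 5 passed the filter on low counts that left 16959 genes for testing. Each was followed through 7 groups of libraries of nascent RNA, that is RNA made shortly before the cells were lysed.

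The libraries came from BrU-seq, in which living cells build bromouridine into new transcripts which are then captured through the label and sequenced. The cells were cortical cultures of CD1 mice at day 17 in vitro, and per the design text the replicates were of mixed sex. All cultures received a pretreatment of 30 min, a treatment of 1 h or 4 h, and 2 mM bromouridine during the final 30 min. The question was how the demethylase genes are transcribed when network activity is raised, and whether MM401 alters this.

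The 3 DMSO groups were pretreated with the solvent and then given bicuculline (as its methiodide, 40 µM) for 1 h, bicuculline for 4 h, or sterile water for 4 h. The 4 MM401 groups were pretreated with 25 µM MM401 and given bicuculline for 1 h, bicuculline for 4 h, water for 1 h, or water for 4 h. Bicuculline blocks GABA-A receptors and so removes inhibition from the network. MM401 is a peptidomimetic that keeps the methyltransferase MLL1 (Kmt2a) from binding WDR5; it is a chemical inhibitor, and no genetic loss of MLL1 was part of these groups. No DMSO group with 1 h of water was analysed here, so the DMSO response at 1 h was taken against water at 4 h, and treatment and duration cannot be told apart in it. Each group held 3 libraries except MM401 with water at 4 h, which held 2, because its replicate 3 had only 316741 counts in genes (0.503% of the median) and was left out. The other 20 libraries had 49886348 to 87939384 counts in genes. The design text calls the replicates biological but does not say whether the cultures came from separate animals, so p-values measure the spread between these libraries.

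Markers of neurons were present in every library, with a summed level of 4 pan-neuronal genes of 2427 to 2823 CPM in the 8 water libraries and 3310 to 4097 CPM in the 12 bicuculline libraries (CPM, edgeR's counts scaled to the normalised library total). The 4 genes did not move as one: 1 was called higher and 1 lower at 1 h in DMSO, 2 higher and 0 lower at 1 h with MM401, and 2 higher and 2 lower at 4 h in each pretreatment. Of 5 glutamatergic markers (648 to 819 CPM in sum in water and 806 to 1133 CPM in bicuculline), 2 were called higher and 1 lower at each time in DMSO and at 4 h with MM401, and 3 higher and 2 lower at 1 h with MM401. Of 3 GABAergic markers, 2 were called higher at each time in DMSO and 3 with MM401 (317 to 378 CPM in sum in water and 483 to 675 CPM in bicuculline). Some counts changed with plain library totals, that is without normalisation beyond the total. At 1 h with MM401, 1 pan-neuronal gene was then higher and 1 lower, and 2 GABAergic markers higher. Of the glutamatergic markers 2 were then higher and 2 lower at 1 h in each pretreatment. All 5 astrocyte markers were also detected (1048 to 1626 CPM in sum), with 2 called higher and 1 lower at 1 h in DMSO, 4 higher at 1 h and 2 at 4 h with MM401, and 0 at 4 h in DMSO. With plain library totals, 0 astrocyte markers were called at 1 h and 1 higher at 4 h with MM401, and 1 lower at 4 h in DMSO. Of 5 oligodendrocyte lineage markers (113 to 130 CPM in sum in water and 139 to 159 CPM in bicuculline), 2 were called higher at 1 h and 3 at 4 h in DMSO, and 1 and 2 with MM401. With plain library totals these counts were 1 and 0 in DMSO, and 0 and 2 with MM401. Of 5 microglia markers (26.2 to 42.5 CPM in sum), 0 were called at 1 h, 2 higher at 4 h in DMSO and 4 higher at 4 h with MM401. With plain library totals, 0 were called at 4 h in DMSO and 3 higher at 4 h with MM401. Endothelial and fibroblast markers summed to at most 3.35 CPM in any library. Fos, a rapid activity-induced gene, rose in each of the 4 comparisons of bicuculline with water, by 2.66 ± 0.173 (log2 fold change ± SE) at 1 h in DMSO and by 3.04 ± 0.176 in MM401 (edgeR quasi-likelihood, adjusted p = 7.57e-09 and 2.05e-09). In such bulk libraries, fewer cells of a type and less RNA per cell cannot be told apart, and the part of the marker shifts in the results below was not tested.

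Methylation of H3K4 marks active promoters and enhancers, and it is written by the SET1/MLL methyltransferases and erased by both families studied here. KDM1A (LSD1) and KDM1B (LSD2) are flavin-dependent amine oxidases that remove mono- and dimethyl marks. KDM5A, KDM5B and KDM5C are JmjC dioxygenases, dependent on iron and 2-oxoglutarate, that remove trimethyl and dimethyl marks. In neurons, LSD1 is known for its work with the corepressor CoREST and for a neuron-specific splice form, and loss of KDM5C, an X-linked gene that escapes X inactivation, causes intellectual disability in humans.

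The LSD genes are Kdm1a, on chr4:136550532-136602723 (minus strand), and Kdm1b, on chr13:47043498-47085279 (plus strand), in the coordinates of the authors' table (mouse build mm10). The KDM5 genes are Kdm5a on chr6:120364098-120444574, Kdm5b on chr1:134560177-134632878 and Kdm5c on chrX:152233226-152279099, all on the plus strand. The counts cover the whole span of each gene, introns included, from 41782 bp for Kdm1b to 80477 bp for Kdm5a. Kdm1b overlaps Dek on the opposite strand by 514 bp and Kdm5a overlaps Ccdc77 by 272 bp. Whether the counting used strand is not given in the sources used here, so reads in those stretches cannot be assigned with certainty.

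RefSeq promoter windows (build GRCm38.p6, 250 bases before to 50 bases after the start) were matched for 4 of the 5 genes, Kdm1a, Kdm1b, Kdm5b and Kdm5c. They are shown as a description. Kdm5a had no window, and whether motifs relate to the response was not tested. Capitals mark matches, on either strand, to motifs of activity-regulated factors: the CRE (TGACGTCA), its shorter form (TGACG, which also lies within every CRE), AP-1 (TGANTCA), the E-box (CACGTG), the EGR site (GCGTGGGCG) and the serum response element. Kdm1a lies in chr4:136602674-136602973 (minus strand), Kdm1b in chr13:47043249-47043548 (plus), Kdm5b in chr1:134559928-134560227 (plus) and Kdm5c in chrX:152232977-152233276 (plus).
Kdm1a: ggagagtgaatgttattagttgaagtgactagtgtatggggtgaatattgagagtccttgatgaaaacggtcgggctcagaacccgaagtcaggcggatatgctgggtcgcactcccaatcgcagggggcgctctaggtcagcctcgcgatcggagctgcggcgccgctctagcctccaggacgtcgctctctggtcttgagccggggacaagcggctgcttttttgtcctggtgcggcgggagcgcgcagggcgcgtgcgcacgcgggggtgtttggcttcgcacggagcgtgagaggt
Kdm1b: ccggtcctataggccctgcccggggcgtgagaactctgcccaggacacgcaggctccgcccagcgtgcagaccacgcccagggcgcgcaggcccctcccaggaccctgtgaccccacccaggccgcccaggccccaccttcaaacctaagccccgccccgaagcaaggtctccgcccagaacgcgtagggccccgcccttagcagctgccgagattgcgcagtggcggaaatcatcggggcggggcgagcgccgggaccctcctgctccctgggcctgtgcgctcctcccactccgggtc
Kdm5b: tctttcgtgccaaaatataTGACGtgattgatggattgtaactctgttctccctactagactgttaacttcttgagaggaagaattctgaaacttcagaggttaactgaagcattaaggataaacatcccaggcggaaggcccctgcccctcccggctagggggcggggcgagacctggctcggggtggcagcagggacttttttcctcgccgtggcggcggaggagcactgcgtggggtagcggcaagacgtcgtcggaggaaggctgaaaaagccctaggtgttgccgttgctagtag
Kdm5c: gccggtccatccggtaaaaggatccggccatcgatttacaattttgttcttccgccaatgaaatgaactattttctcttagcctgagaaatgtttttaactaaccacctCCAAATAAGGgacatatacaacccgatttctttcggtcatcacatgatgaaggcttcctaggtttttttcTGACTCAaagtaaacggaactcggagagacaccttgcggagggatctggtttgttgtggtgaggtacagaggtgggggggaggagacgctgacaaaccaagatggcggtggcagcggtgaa

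The windows of Kdm1a and Kdm1b held none of these letters. Kdm5b held 1 TGACG at position -231 from the start, a motif found in 20.8% of the 32851 windows in the RefSeq table. Kdm5c held 1 AP-1 match at -71 and 1 serum response element match at -141, which occur in 7.81% and 1.63% of windows. The full CRE, the E-box and the EGR site occur in 1.79%, 7.15% and 0.612% of windows and were in none of the 4. The LSD promoters were the richest in G and C, with 72.3% for Kdm1b and 61.3% for Kdm1a, against 54.7% for Kdm5b, 47% for Kdm5c and a median of 52.7% over all windows. Kdm1a held 29 CpG dinucleotides, Kdm1b 26, Kdm5b 17 and Kdm5c 13, against a median of 7. A match describes letters in the window, not a bound site.

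All 5 genes were transcribed in every library. Per kilobase of gene span, the median level over the 20 libraries was highest for Kdm1a (2.60 CPM per kb) and Kdm5b (2.50), followed by Kdm5a (2.16) and Kdm5c (1.74), and these 4 stood between the 83.4th and 91.7th percentiles of the tested genes. Kdm1b was the exception within its own family, at 0.510 CPM per kb (46.6th percentile), and its smallest count in a library was 698, for which counting error alone is 3.79%. Across libraries the highest level exceeded the lowest 1.60-fold for Kdm1b, 1.39-fold for Kdm1a, 1.38-fold for Kdm5b, 1.35-fold for Kdm5c and 1.22-fold for Kdm5a. The gene with the lowest transcription thus had the widest range across libraries.

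**Figure D1:**
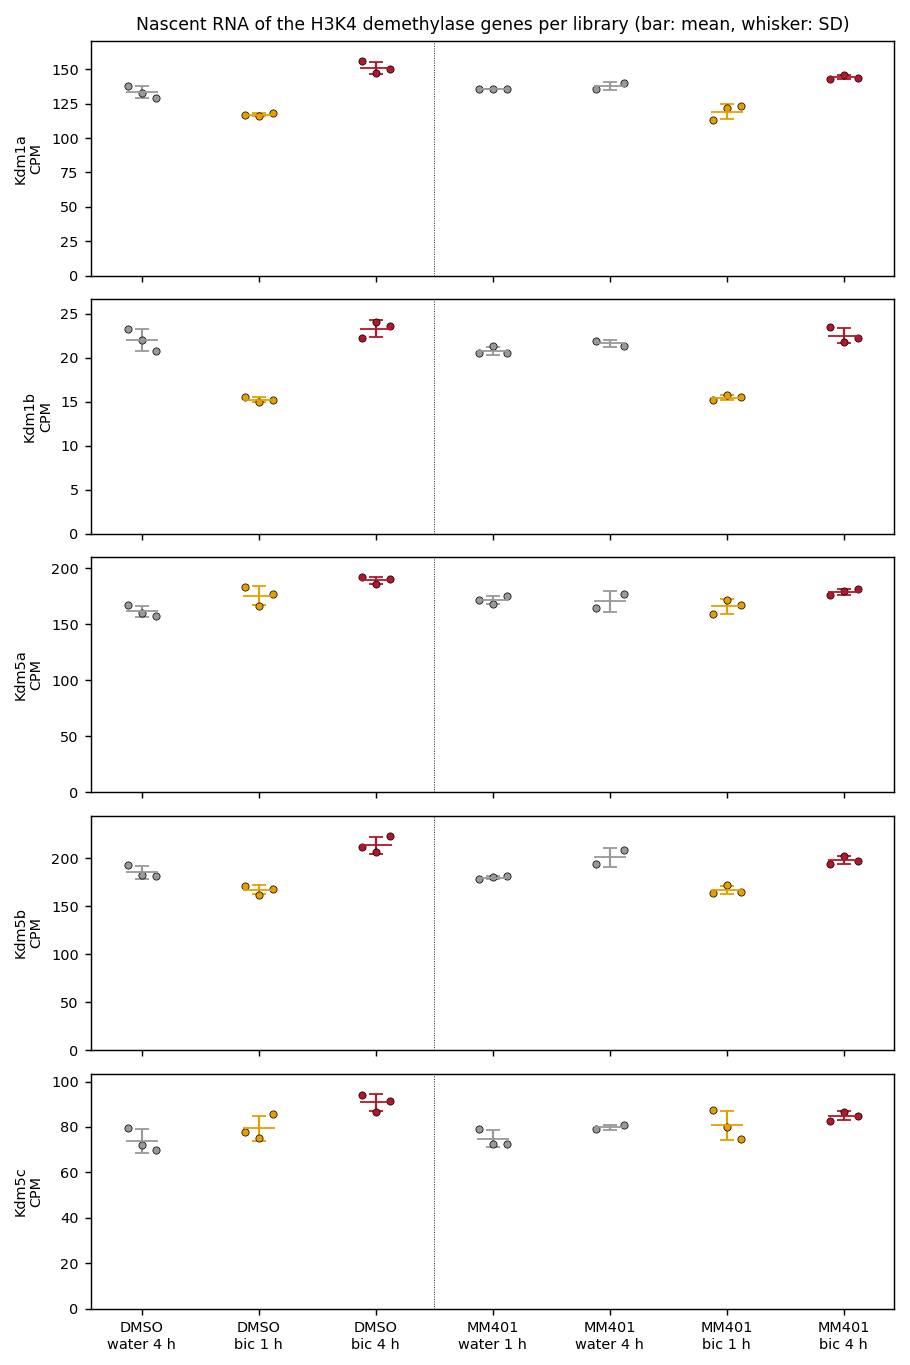
Level of each demethylase gene in CPM (y axis, linear from 0) in each library (points) by group (x axis), with the group mean (bar) and SD (whisker); grey is water, orange bicuculline at 1 h and red bicuculline at 4 h. Kdm1b lies at 15.0 to 15.7 CPM in the 6 libraries with bicuculline at 1 h and at 20.5 to 24.0 CPM in the other 14.

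Kdm1b, which encodes LSD2, gave the clearest change of the family: its nascent RNA was low after 1 h of bicuculline and higher again after 4 h, with DMSO and with MM401. In DMSO it was at 23.2, 22.0 and 20.8 CPM in water at 4 h and at 15.5, 15.0 and 15.2 CPM after 1 h of bicuculline. With MM401 it was at 20.5, 21.3 and 20.5 CPM in water at 1 h and at 15.2, 15.7 and 15.5 CPM after 1 h of bicuculline. The libraries of bicuculline and water did not overlap in either pretreatment. Kdm1b fell by 0.53 ± 0.0589 on the log2 scale in DMSO, to 0.694 of the water level (edgeR quasi-likelihood, adjusted p = 2.73e-07), and by 0.42 with MM401, to 0.745 of it (adjusted p = 6.35e-06). Only 9.27% of all tested genes had a change as low or lower in DMSO, and 12.3% with MM401.

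After 4 h of bicuculline Kdm1b was at 22.2, 24.0 and 23.6 CPM in DMSO and at 23.5, 21.8 and 22.2 CPM with MM401, while MM401 with water at 4 h gave 21.9 and 21.3 CPM. Its 4 h bicuculline libraries all stood above its 1 h bicuculline libraries and overlapped those of water. From 1 h to 4 h of bicuculline it rose by 0.61 ± 0.0589 in DMSO (1.53-fold, edgeR adjusted p = 4.64e-08) and by 0.54 with MM401 (1.46-fold, adjusted p = 3.25e-07), at the 94.1st and 92.9th percentiles of all genes. Against water at 4 h, the difference was 0.084 in DMSO (95% interval -0.036 to 0.20) and 0.06 with MM401 (-0.076 to 0.20), and neither passed the test. Dek, the overlapping gene on the other strand, did not share the 1 h fall: its log2 change was 0.0017 in DMSO (edgeR adjusted p = 0.986) and 0.17 with MM401 (adjusted p = 0.0471). From 1 h to 4 h of bicuculline Dek did rise, by 0.37 in DMSO and by 0.24 with MM401 (edgeR adjusted p = 1.49e-04 and 0.00847). Against water at 4 h it was higher by 0.37 and 0.52 (edgeR adjusted p = 8.36e-05 and 1.08e-05). Its part in the counts of Kdm1b was not tested.

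Because a ratio of counts within a library needs no scaling between libraries, Kdm1b was also set against other members. Per 100 counts of Kdm5a, Kdm1b gave 8.46 to 9.07 counts in DMSO with bicuculline at 1 h and 9.15 to 9.56 with MM401 and bicuculline at 1 h, against 11.6 to 13.9 in the other 5 groups. Per 100 counts of its paralogue Kdm1a it gave 12.6 to 13.5 in the 6 libraries with bicuculline at 1 h and 14.2 to 16.9 elsewhere. Both ratios thus separated every library of bicuculline at 1 h from every other library. An exact two-sided permutation test of either ratio at 1 h gave p = 0.1 in each pretreatment, the smallest value that 3 libraries against 3 can reach (0.165 adjusted over 56 such tests).

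Kdm1a, which encodes LSD1, was also lowest after 1 h of bicuculline. In DMSO it was at 138, 133 and 129 CPM in water at 4 h, at 117, 116 and 118 CPM after 1 h of bicuculline and at 156, 147 and 150 CPM after 4 h. With MM401 it was at 136 CPM in all 3 water libraries at 1 h, at 136 and 140 CPM in water at 4 h, at 113, 122 and 123 CPM after 1 h of bicuculline and at 143, 146 and 144 CPM after 4 h. In both pretreatments the 1 h bicuculline libraries were the lowest and the 4 h bicuculline libraries the highest, with no overlap, under TMM. With MM401 the difference from water at 4 h was 0.069 and not called (edgeR adjusted p = 0.305), and with plain library totals the 4 h values turned to -0.092 in DMSO and -0.0061 with MM401. Kdm1a fell by 0.19 ± 0.0471 at 1 h in DMSO (edgeR adjusted p = 0.00281) and by 0.19 with MM401 (adjusted p = 0.00251). From 1 h to 4 h it rose by 0.37 in DMSO (1.29-fold, edgeR adjusted p = 2.40e-06) and by 0.28 with MM401 (1.21-fold, adjusted p = 8.22e-05). The 1 h fall in DMSO was called in 5 of 7 alternative settings and that with MM401 in 7 of 7.

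Kdm5b, a demethylase of trimethylated H3K4, was likewise higher after 4 h than after 1 h of bicuculline. In DMSO it was at 193, 182 and 181 CPM in water at 4 h, at 171, 162 and 168 CPM after 1 h of bicuculline and at 211, 206 and 223 CPM after 4 h. With MM401 it was at 178, 180 and 181 CPM in water at 1 h, at 194 and 208 CPM in water at 4 h, at 164, 172 and 165 CPM after 1 h of bicuculline and at 194, 202 and 197 CPM after 4 h. The 1 h bicuculline libraries lay below those of water in each pretreatment, and those of 4 h lay above water in DMSO and overlapped it with MM401. From 1 h to 4 h Kdm5b rose by 0.35 ± 0.0508 in DMSO (1.27-fold, edgeR adjusted p = 1.10e-05) and by 0.24 with MM401 (1.18-fold, adjusted p = 7.15e-04). With MM401, water itself gave 0.16 more at 4 h than at 1 h (edgeR adjusted p = 0.248), and with each time taken against its own water the rise was 0.083 (adjusted p = 0.549), an alternative chosen after seeing the data. At 1 h Kdm5b fell by 0.15 in DMSO (edgeR adjusted p = 0.0198), and with MM401 the value was -0.11 (adjusted p = 0.103). The DMSO call was lost without replicate 2 of bicuculline at 1 h (-0.13), without replicate 1 of water (-0.12) and without replicate 2 of water (-0.14). It was also lost with all 21 libraries, with the 2 groups alone and with DESeq2 (-0.11, adjusted p = 0.0797), and so held in 4 of 7 alternative settings. The MM401 value was called lower with the length correction (-0.16, edgeR adjusted p = 0.00584) and with plain library totals (-0.32, adjusted p = 2.91e-05).

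Kdm5a and Kdm5c were not called at 1 h in either pretreatment. Kdm5a, whose protein was first known as a partner of the retinoblastoma protein, was at 167, 160 and 157 CPM in DMSO with water, at 183, 166 and 177 CPM after 1 h of bicuculline and at 192, 186 and 190 CPM after 4 h. With MM401 it was at 172, 168 and 175 CPM in water at 1 h, at 164 and 177 CPM in water at 4 h, at 159, 172 and 167 CPM after 1 h of bicuculline and at 176, 180 and 181 CPM after 4 h. Its 1 h libraries overlapped those of water in both pretreatments, and the log2 differences were 0.12 in DMSO (edgeR adjusted p = 0.0729) and -0.047 with MM401 (adjusted p = 0.499). The DMSO difference passed the test without replicate 2 of bicuculline at 1 h (0.16) and without replicate 1 of water (0.14), and DESeq2 called it higher (0.16, adjusted p = 0.0143). With plain library totals it was -0.072 in DMSO, and with MM401 Kdm5a was called lower at 1 h (-0.26, edgeR adjusted p = 5.52e-04). Between 1 h and 4 h of bicuculline Kdm5a differed by 0.11 in each pretreatment, which did not pass the test (edgeR adjusted p = 0.108 in DMSO and 0.117 with MM401). With MM401 it did pass with the length correction (0.14, adjusted p = 0.0229) and with plain totals (0.19, adjusted p = 0.0134).

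Kdm5c was at 79.7, 72.2 and 69.8 CPM in DMSO with water, at 77.6, 75.2 and 85.7 CPM after 1 h of bicuculline and at 94.0, 86.8 and 91.6 CPM after 4 h. With MM401 it was at 79.3, 72.7 and 72.6 CPM in water at 1 h, at 78.9 and 80.7 CPM in water at 4 h, at 87.4, 80.0 and 74.7 CPM after 1 h of bicuculline and at 82.8, 86.8 and 85.0 CPM after 4 h. At 1 h bicuculline and water overlapped, and the log2 difference was 0.11 in each pretreatment (95% interval -0.028 to 0.24 in DMSO and -0.026 to 0.24 with MM401). With plain totals these values were -0.082 and -0.11, not called. From 1 h to 4 h of bicuculline Kdm5c rose by 0.19 in DMSO (edgeR adjusted p = 0.0240), but the call was lost without replicate 1 (0.18) or replicate 2 (0.15) of the 1 h group and without replicate 1 (0.17) or replicate 3 (0.19) of the 4 h group. It was called in only 2 of 7 alternative settings, the exceptions being all 21 libraries, plain totals, the length correction, the 2 groups alone and DESeq2 (0.11 to 0.17, adjusted p from 0.0568 to 0.238). With MM401 the difference between the times was 0.074 (edgeR adjusted p = 0.419), and it was called with plain totals (0.15, adjusted p = 0.0385).

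The members were also set against each other within each library. Relative to Kdm5c, the value of Kdm1a after 1 h of bicuculline minus that in water was -0.29 on the log2 scale in DMSO and -0.30 with MM401, and that of Kdm5b was -0.26 and -0.21, with no overlap between libraries in any of the 4 comparisons. Relative to Kdm5a the differences were -0.30 and -0.14 for Kdm1a and -0.27 and -0.059 for Kdm5b (DMSO and MM401), again with no overlap. With an exact permutation p of 0.1 each, the smallest possible (0.165 adjusted over 56 tests), none of these could pass a threshold of 0.05. Over the 20 libraries the log2 level of Kdm1a correlated with that of Kdm5b (r = 0.92) and Kdm1b (r = 0.91), whereas Kdm1b and Kdm5c gave r = 0.18 and Kdm1b and Kdm5a gave r = 0.29. Kdm5a and Kdm5c correlated with each other at r = 0.69. These r values describe 20 libraries in 7 groups that share treatments and scaling, and carry no test.

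**Figure D2:**
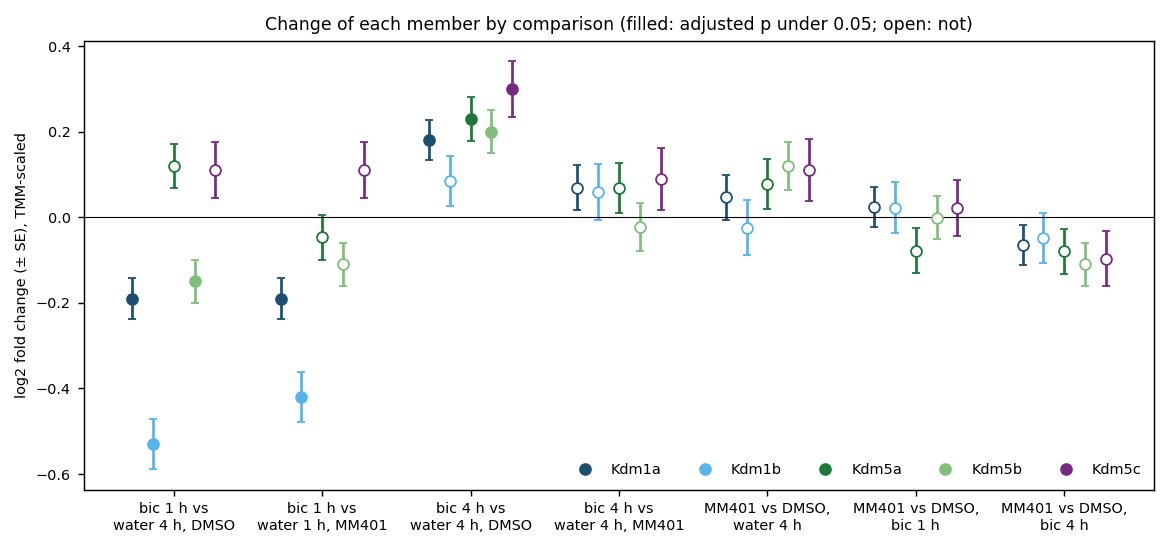
Log2 fold change with its SE (y axis) of each demethylase gene (colours) in 7 comparisons (x axis); filled points passed an adjusted p of 0.05 in edgeR and open points did not. At 1 h Kdm1a and Kdm1b lie below 0 in both pretreatments, at 4 h in DMSO 4 of 5 genes are called above 0, and no gene is called with MM401 against DMSO.

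Counted over the members, 3 of 5 were called at 1 h in DMSO, all lower (Kdm1a, Kdm1b and Kdm5b), where 44.6% of all genes were called, 24.5% lower. DESeq2 also called 3 there, but with Kdm5a higher in place of Kdm5b lower, and with all 21 libraries or the 2 groups alone Kdm1b was the 1 member called (5223 of 16784 and 5848 of 16959 genes were called there). With MM401 at 1 h, 2 of 5 were called, both lower (Kdm1a and Kdm1b), where 39.9% of all genes were called, 21.8% lower. Between 1 h and 4 h of bicuculline 4 of 5 were called higher in DMSO, beside 34.2% of all genes called (19.1% higher). With MM401 3 of 5 were called higher between these times, beside 33.6% (17.5% higher). With edgeR and TMM, no member was called in the opposite direction in any of these 4 comparisons. The 2 DMSO responses share their water libraries, and the comparisons between times share the bicuculline libraries with them.

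At 4 h against water, 4 of 5 members were called higher in DMSO and none with MM401. In DMSO, Kdm5c rose by 0.30 ± 0.0647, Kdm5a by 0.23, Kdm5b by 0.20 and Kdm1a by 0.18 (edgeR adjusted p = 5.83e-04, 9.57e-04, 0.00227 and 0.00295), beside 49.2% of all genes called, 23.7% higher. With MM401 the 5 differences ran from -0.023 for Kdm5b to 0.089 for Kdm5c, beside 44.6% of all genes called; no member had an unadjusted p under 0.05 in edgeR, and DESeq2 also called 0. Among all genes these DMSO rises stood between the 67.5th percentile for Kdm1a and the 75.8th for Kdm5c. The call for Kdm1a was lost without replicate 3 of water (0.13). The calls for Kdm1a and Kdm5b each held in 3 of 7 alternative settings: with all 21 libraries they were lost (edgeR adjusted p = 0.0674 and 0.0505), as they were with the 2 groups alone (0.0734 and 0.0613), plain totals and the length correction.

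These small rises depended on how libraries were scaled. The scaling used (TMM) assumes that most genes do not change, and its factors were 0.895 to 1.03 in the 12 bicuculline libraries and 1.02 to 1.16 in the 8 water libraries. With plain library totals the median change of all genes moved from -0.024 to -0.30 at 4 h in DMSO, the share of calls that were higher fell from 48.1% to 18.8%, and the members gave -0.092 for Kdm1a, -0.046 for Kdm5a, -0.071 for Kdm5b and 0.028 for Kdm5c, none called, with Kdm1b called lower at -0.19. With a correction for gene length, Kdm5c alone remained called. The share of higher calls moved likewise from 44.9% to 21.2% at 1 h in DMSO, from 45.4% to 16.3% at 1 h with MM401 and from 51.5% to 40.3% at 4 h with MM401. It moved from 55.7% to 39.2% between the times in DMSO and from 52.3% to 65.0% with MM401. The 1 h fall of Kdm1b was called in 7 of 7 alternatives, between -0.71 and -0.49 in DMSO and between -0.64 and -0.39 with MM401. The rises from 1 h to 4 h of Kdm1a, Kdm1b and Kdm5b were also called in these 7 alternatives in each pretreatment, whereas with MM401 and each time against its own water only those of Kdm1a and Kdm1b were.

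Plain totals shift all genes of a comparison by nearly the same amount, so they leave the place of a gene among all genes nearly as it was by construction, which is no sign of stability. The length correction can move it. At 1 h in DMSO Kdm1b stood lowest of the members, at the 9.27th percentile with TMM. With the length correction the percentiles at 1 h in DMSO were 5.31 for Kdm1b, 22.0 for Kdm5b, 23.8 for Kdm1a, 52.7 for Kdm5a and 61.0 for Kdm5c. With TMM, Kdm1a stood at the 34.7th percentile in DMSO and the 30.8th with MM401, Kdm5b at the 38.4th and 39.4th, Kdm5a at the 64.5th and 45.3rd, and Kdm5c at the 63.7th and 61.1st. Between 1 h and 4 h of bicuculline, Kdm1a reached the 85.5th percentile in DMSO and the 79.5th with MM401, and Kdm5b the 84.7th and 76.3rd.

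**Figure D3:**
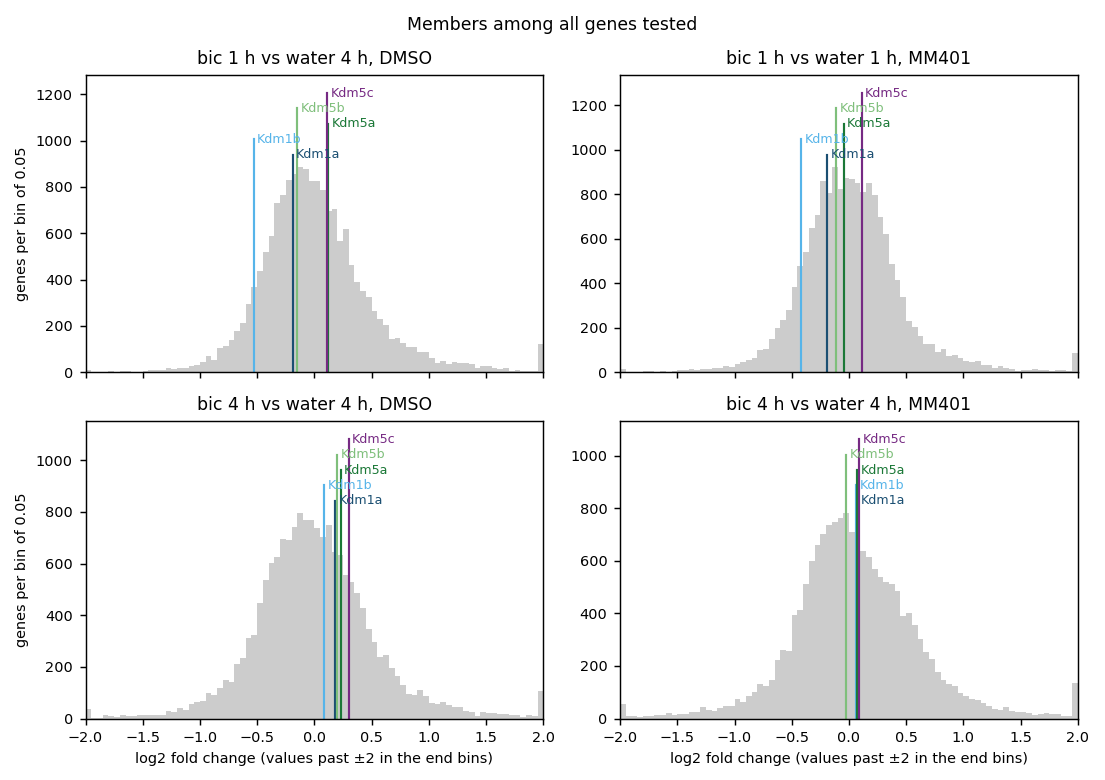
Number of tested genes (y axis) by log2 fold change in bins of 0.05 (x axis, values past 2 in the end bins) in the 4 comparisons of bicuculline with water, with a line for each demethylase gene. Kdm1b lies in the lower tail at 1 h (9.27th percentile in DMSO and 12.3rd with MM401), and at 4 h the 5 genes lie between the 46.6th and 75.8th percentiles.

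MM401 against DMSO gave no called member at any matched treatment. In water at 4 h the 5 differences ran from -0.024 for Kdm1b to 0.12 for Kdm5b, beside 0.0826% of all genes called. After 1 h of bicuculline they ran from -0.078 for Kdm5a to 0.024 for Kdm1a, beside 0.00590%. After 4 h all 5 were below 0, from -0.049 for Kdm1b to -0.11 for Kdm5b, beside 0% (no gene called by edgeR, 1309 with an unadjusted p under 0.05, and 7 called by DESeq2). With plain totals all 5 were above 0 after 4 h, from 0.0022 for Kdm5b to 0.063 for Kdm1b, none called. For Kdm1b the 95% interval was -0.16 to 0.11 in water, -0.10 to 0.15 after 1 h and -0.17 to 0.072 after 4 h of bicuculline. Among the members, only Kdm5b after 4 h of bicuculline had an unadjusted p under 0.05 (0.0435, edgeR adjusted p = 0.639), and DESeq2 called 0 members in any of the 3.

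The difference between the bicuculline responses with MM401 and with DMSO was tested directly. At 4 h it was -0.22 for Kdm5b, -0.21 for Kdm5c, -0.16 for Kdm5a, -0.11 for Kdm1a and -0.024 for Kdm1b, and none was called (edgeR adjusted p from 0.232 to 0.916) beside 0% of all genes. Over all genes 2552 had an unadjusted p under 0.05 in that test, Kdm5b and Kdm5c among them. DESeq2 called 436 of the 2164 genes for which it gave an adjusted p, with Kdm5b among those at -0.26. Of these 436, 2 were higher and 434 lower. Without replicate 1 of DMSO with water, edgeR called Kdm5b as well (-0.25). Over the 7 alternative settings the difference ran from -0.26 to -0.027 for Kdm5b (called in 1) and from -0.26 to -0.013 for Kdm5c (called in 0). At 1 h, with both responses taken against water at 4 h, the difference ran from -0.16 for Kdm5a to 0.046 for Kdm1b, none called, beside 0% (1326 genes at an unadjusted p under 0.05 and 5 called by DESeq2). Water at 4 h against water at 1 h with MM401 gave no called member, from -0.0084 for Kdm5a to 0.16 for Kdm5b, beside 0.867%.

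The order of the group means, in CPM scaled by TMM, summed this up for each gene. How many of all genes had groups apart, here or in the comparisons above, was not counted. Nothing particular to the members is therefore read from such separation. For Kdm1a and Kdm1b both groups with bicuculline at 1 h were lowest, overlapped each other and lay apart from all other groups. For Kdm5b the same 2 groups were lowest, overlapping each other, at a mean of 167 CPM each, and lay apart from the next, MM401 with water at 1 h (180 ± 1.63 CPM, SD, n = 3). For Kdm5c every neighbour in the order overlapped, from 73.9 ± 5.19 CPM in DMSO with water to 90.8 ± 3.70 CPM in DMSO with bicuculline at 4 h (SD, n = 3 each). For Kdm5a all neighbours overlapped except the highest group, DMSO with bicuculline at 4 h (189 ± 2.91 CPM, SD, n = 3).

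Kdm5c has a Y-linked copy, Kdm5d, which encodes a demethylase of the same kind, and reads from so similar a pair may be split between them by the counting. Kdm5d was detected in every library, as was Xist (90.3 CPM or more), so each library held RNA of both sexes. Xist itself rose by 0.89 at 4 h with MM401 (188 CPM on average with bicuculline and 101 CPM with water, edgeR adjusted p = 0.00734), and its differences of 0.42 and 0.53 at 1 h (DMSO and MM401) and 0.26 at 4 h in DMSO were not called by edgeR with TMM. The difference at 1 h with MM401 was called with DESeq2 (0.56, adjusted p = 0.0205) and with the length correction (0.62, edgeR adjusted p = 0.0332). Per 100 counts of Kdm5c, Kdm5d gave 54.3 to 62.4 counts in the 8 water libraries and 42.9 to 54.3 in the 12 bicuculline libraries. In each of the 4 comparisons of bicuculline with water the libraries did not overlap in this ratio. At 1 h with MM401 the gap was within rounding, with 54.3 in the nearest library of either group. An exact permutation test gave p = 0.1 in each comparison (0.165 adjusted over 56 tests). That is the smallest value it can reach, so it could not pass a threshold of 0.05. In edgeR, Kdm5d fell by 0.21 at 1 h in DMSO (adjusted p = 0.0211) and by 0.20 at 4 h with MM401 (adjusted p = 0.0479), and was not called in the other 2; DESeq2 called it in none. Other Y-linked genes did not follow under TMM: Ddx3y, an RNA helicase, rose by 1.39 and 1.55 at 1 h and by 1.09 and 1.14 at 4 h (DMSO and MM401). Uty, the Y copy of Kdm6a, rose in all 4 comparisons as well, while Eif2s3y was called in none of them. With plain library totals, 2 of the 5 sex-linked genes (these, Kdm5d and Xist) were called higher and 2 lower at 1 h in DMSO. At 4 h in DMSO and at 1 h with MM401 it was 2 higher and 1 lower each.

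The counts of 4 gene lists that follow are to be read beside all 16959 genes, of which 3396 were called higher and 4161 lower at 1 h in DMSO, 3070 and 3699 at 1 h with MM401, 4014 and 4330 at 4 h in DMSO, and 3898 and 3674 at 4 h with MM401. In all, 44.6%, 39.9%, 49.2% and 44.6% of genes were called in these comparisons, and nothing particular to a list is read from its count.

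Among 13 partners of LSD1 and LSD2, which include the CoREST scaffolds and the deacetylases bound to them, 8 fell and 0 rose at 1 h in DMSO, and 5 fell and 1 rose with MM401. At 4 h, 3 rose and 5 fell in DMSO, and 3 rose and 4 fell with MM401. DESeq2 gave 1 higher and 7 lower at 1 h in DMSO and 1 and 3 with MM401, and plain totals gave 0 and 9 at 1 h with MM401 and 1 and 8 at 4 h in DMSO. The list's median change was -0.23 at 1 h in DMSO and -0.097 with MM401, against -0.038 and -0.0018 for all genes. Rcor2, a CoREST scaffold, fell in all 4 comparisons, by 0.85 and 0.59 at 1 h and by 0.72 and 0.62 at 4 h (DMSO and MM401). Rcor3 fell in all 4 too, by 0.28 and 0.47 at 1 h and by 0.31 and 0.42 at 4 h. Rcor1, the best studied CoREST scaffold, fell by 0.27 at 1 h in DMSO, was at 0.034 there with MM401 (not called), and rose by 0.53 and 0.41 at 4 h. Rest, the repressor that recruits CoREST, rose by 0.76 at 4 h with MM401, while its values of 0.36 at 4 h in DMSO and of -0.0022 and 0.077 at 1 h were not called. Gse1 fell by 0.64 and 0.67 at 4 h and by 0.24 at 1 h with MM401, and was at -0.015 at 1 h in DMSO (not called). The calls for these 5 genes were made the same way with plain library totals, a gene length correction and DESeq2, except that DESeq2 did not call Gse1 at 1 h. Rest at 4 h in DMSO was called higher with the length correction and DESeq2 (0.45 and 0.38), and Rcor1 at 1 h with MM401 lower with plain totals (-0.18).

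Among 8 partners of the KDM5 enzymes, 3 rose and 4 fell at 1 h in each pretreatment. At 4 h, 3 rose and 3 fell in DMSO and 3 rose and 2 fell with MM401. With plain totals it was 2 and 5 at 1 h in DMSO, 1 and 5 at 1 h with MM401, 2 and 5 at 4 h in DMSO and 2 and 3 at 4 h with MM401. Rbpj, the DNA-binding factor of Notch signalling that recruits KDM5A, rose by 0.60 and 0.48 at 1 h and by 0.70 and 0.55 at 4 h (DMSO and MM401), in all 4 scalings. Rb1, the retinoblastoma gene, rose by 0.45 and 0.29 at 4 h in all 4 scalings, and by 0.17 and 0.28 at 1 h, where plain totals called neither (-0.02 and 0.067). Phf12, of the SIN3 complex, fell by 0.35 and 0.42 at 4 h and by 0.14 and 0.29 at 1 h, all but the value of 1 h in DMSO in all 4 scalings. Morf4l1 rose by 0.42 and 0.34 at 1 h and by 0.37 and 0.20 at 4 h, of which plain totals called the first alone. Gatad1 fell by 0.40 and 0.48 at 1 h and by 0.46 at 4 h in DMSO, and was at -0.24 at 4 h with MM401 (not called). With the length correction its value at 1 h in DMSO was not called (-0.21).

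The 17 other JmjC demethylases, which act mainly on other lysines of histone H3, moved in both directions. At 1 h 6 rose and 3 fell in DMSO and 7 rose and 4 fell with MM401, and at 4 h 8 rose and 6 fell in DMSO and 6 rose and 6 fell with MM401. Plain totals turned the balance to 3 higher and 8 lower at 1 h in DMSO, 5 and 8 at 1 h with MM401 and 5 and 8 at 4 h in DMSO, and the length correction gave 3 and 4 at 1 h in DMSO. Kdm7a rose by 0.70 and 0.86 at 1 h and by 0.88 and 0.70 at 4 h, and Jmjd1c by 0.62 and 0.66 at 1 h and by 0.75 and 0.57 at 4 h (DMSO and MM401), in all 4 scalings. Kdm6b, an H3K27 demethylase, rose by 0.53 and 0.56 at 1 h in all 4 scalings, and by 0.37 and 0.27 at 4 h, where plain totals called neither and the length correction and DESeq2 the first alone. Kdm6a rose by 0.51 and 0.43 at 4 h in all 4 scalings and by 0.24 at 1 h with MM401 (not called with plain totals or the length correction), and was at 0.025 at 1 h in DMSO (not called).

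Of the 10 genes of the SET1/MLL methyltransferases and their shared core, which place the mark the members remove, 2 rose and 5 fell at 1 h in DMSO, and 1 rose and 4 fell with MM401. At 4 h, 1 rose and 4 fell in DMSO, and 0 rose and 6 fell with MM401. Wdr5, the subunit whose contact with MLL1 is blocked by MM401, fell by 0.36 and 0.40 at 4 h and by 0.17 and 0.34 at 1 h, and Rbbp5 fell by 0.45 and 0.42 at 1 h and by 0.16 and 0.26 at 4 h (DMSO and MM401). Kmt2c, an enhancer methyltransferase, rose by 0.43 and 0.34 at 1 h and by 0.38 at 4 h in DMSO, and was at 0.11 at 4 h with MM401 (not called). These calls were made the same way in all 4 scalings except for Wdr5 at 1 h in DMSO, lost with the length correction and DESeq2, and Rbbp5 at 4 h in DMSO, lost with DESeq2. The counts of the list moved too. At 1 h in DMSO it was 1 higher and 7 lower with plain totals, 1 and 3 with the length correction and 2 and 3 with DESeq2, and at 4 h in DMSO the falls numbered 9, 3 and 2. None of the 4 lists had a member called with MM401 against DMSO or in the differences between the responses, in edgeR.

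The genes whose level across the 20 libraries was most like that of each member were found among 11827 genes by Pearson correlation of log2 CPM, as a description with no test. They were Ovol2, Cep97 and Zdhhc13 for Kdm1b (r = 0.97 each), Fam199x, Slc25a46 and Rmdn1 for Kdm1a (0.96 to 0.97), and Traf3, Rnf130 and Ints8 for Kdm5b (0.96 each). For Kdm5c they were Parp8 (0.95), Kpna3 and Lyst (0.93 each). Kdm5a had the weakest matches, Tpp2 (0.91), Cdk12 (0.90) and Atp13a3 (0.88).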

How the data were processed

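Values were raw read counts per gene in a table the authors deposited; per the file headers, genes were counted over their whole span. The submitters' processing notes name Bowtie2, UMI-tools, featureCounts, DESeq2, deepTools and build mm10; the annotation, the use of strand and the treatment of multiply mapped reads are not given in the sources used here. The software was edgeR 4.0.16 with limma 3.58.1, run under R 4.3.3. The filter was filterByExpr (minimum count 10, minimum total 15), libraries were scaled by TMM, and 1 robust quasi-likelihood model with a mean per group was fitted to 20 libraries. Genes were called at a two-sided Benjamini-Hochberg adjusted p under 0.05 over 16959 genes, in each of 12 comparisons. The code was tested on simulated data. The common biological coefficient of variation was 8.77%, and no replicate pair of a group agreed within sampling noise (chi-square per degree of freedom of 6.14 to 78.5).

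The members and gene lists were chosen with earlier results of these data known. For each fixed list and each comparison of bicuculline with water, the called genes with the largest changes were named (at most 3). Their values in the other comparisons of bicuculline with water were given too. Also named were Fos from the stimulus genes, the sex-linked genes, and for each member the 3 most correlated genes (mean of at least 2 CPM, prior count 2, predicted, small RNA and pseudogenes left out). Alternatives were no filter, all 21 libraries, DESeq2 1.42.0, plain library totals, a gene length correction, only the groups compared, a replicate block and leaving out each library. Replicate numbers are shared between groups in the labels without a stated meaning. Deviations of same-numbered libraries correlated above 0.1 in every pair only for MM401 against DMSO after 4 h of bicuculline (0.11 to 0.17). Sequences came from RefSeq (GRCm38.p6).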

Additional observations from a re-analysis of the deposited data

Results flagged for a closer look

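In DMSO, 4 of the 5 demethylase genes were called higher after 4 h than after 1 h of bicuculline. No DMSO group with 1 h of water was analysed, so response and duration cannot be told apart in this difference. Of all genes, 34.2% were called in that comparison, 19.1% higher. The log2 difference (4 h minus 1 h) was 0.61 ± 0.0589 (SE) for Kdm1b, 0.37 for Kdm1a, 0.35 for Kdm5b and 0.19 for Kdm5c (edgeR quasi-likelihood, adjusted p = 4.64e-08, 2.40e-06, 1.10e-05 and 0.0240). The call for Kdm5c held in only 2 of 7 alternative settings and was lost in 4 of the 6 fits that left out a library of these groups, whereas the other 3 were called in 7 of 7 settings. With MM401 and each time taken against its own water, it was 0.48 for Kdm1b and 0.26 for Kdm1a (edgeR adjusted p = 6.80e-04 and 0.0167), and 0.12 for Kdm5a, 0.083 for Kdm5b and -0.019 for Kdm5c, none of these 3 called. That form of the comparison was chosen after seeing the data.

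The library left out, replicate 3 of MM401 with water at 4 h, still held 87 counts of Kdm5a, 64 of Kdm5b, 45 of Kdm5c, 41 of Kdm1a and 1 of Kdm1b. As CPM of its own total, Kdm5a came to 275 (95% exact Poisson interval 220 to 339, counting error only), above the 146 to 193 of the other 20 libraries, and Kdm5c to 142 (104 to 190), above their 71.7 to 87.5. The values of Kdm1a (129, interval 92.9 to 176) and Kdm5b (202, interval 156 to 258) lay among those of the other libraries. Kdm1b, at 3.16 with an interval of 0.0799 to 17.6, was below the 22.1 to 22.8 of the other libraries of its group.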

How the results depend on the processing

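Without the filter and with a replicate block, all 60 member values kept their direction and side of the threshold; under the block Kdm1b at 1 h in DMSO was again called at -0.53. Fewer members were called with all 21 libraries (1 at 1 h and 2 at 4 h in DMSO, where 5223 and 6411 of 16784 genes were called) and with only the groups compared (1 and 2, beside 5848 and 7251 of 16959). At 4 h in DMSO plain totals left 1 (Kdm1b, lower, beside 9686 genes) and the length correction 1 (beside 7953). Plain totals raised the calls to 4 at 1 h with MM401 and to 5 between the times with MM401 (beside 7817 and 5546 genes), and DESeq2 called 1 member in the difference between responses at 4 h (beside 436 of 2164 genes), where leaving out libraries gave 0 to 1.

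Plain library totals reversed 26 of 60 values. They were -0.072 for Kdm5a and -0.082 for Kdm5c at 1 h in DMSO; -0.092, -0.19, -0.046 and -0.071 for Kdm1a, Kdm1b, Kdm5a and Kdm5b at 4 h in DMSO; and -0.11 for Kdm5c at 1 h with MM401. At 4 h with MM401 they were -0.0061, -0.015 and -0.0054 for Kdm1a, Kdm1b and Kdm5a. Between the waters they were -0.043 for Kdm1a and -0.0039 for Kdm1b. For MM401 against DMSO they were -0.039 for Kdm1a and -0.009 for Kdm5a in water, -0.025, -0.029 and -0.029 for Kdm1a, Kdm1b and Kdm5c after 1 h, and 0.047, 0.063, 0.032, 0.0022 and 0.014 for Kdm1a, Kdm1b, Kdm5a, Kdm5b and Kdm5c after 4 h. For the difference between responses they were 0.086, 0.17 and 0.041 for Kdm1a, Kdm1b and Kdm5a at 4 h and 0.014 for Kdm1a at 1 h. Plain totals also shifted the median of all genes by -0.19 and -0.21 at 1 h (DMSO and MM401), by 0.11 for MM401 against DMSO after 4 h and by 0.20 for the difference between responses at 4 h.

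All 21 libraries reversed 6 values: -0.0082 for Kdm5a and 0.0042 for Kdm5b at 4 h with MM401, -0.029 for Kdm1a and 0.046 for Kdm5a between the waters, 0.024 for Kdm1b and 0.0039 for Kdm1a in the differences between responses. Kdm5a between the waters also reversed with the length correction (0.0087) and DESeq2 (0.008), and Kdm5c between the times with MM401 against own water (-0.019). Leaving out libraries gave both signs for uncalled values only: Kdm5b at 4 h with MM401 (-0.071 to 0.026), Kdm5c between the times with MM401 (-0.0098 to 0.13), Kdm1a (-0.0036 to 0.039) and Kdm5a (-0.063 to 0.044) between the waters, Kdm1b for MM401 in water (-0.064 to 0.015), Kdm1a (-0.013 to 0.062), Kdm5b (-0.025 to 0.017) and Kdm5c (-0.039 to 0.079) for MM401 after 1 h, Kdm1b (-0.064 to 0.014) and Kdm1a (-0.066 to 0.015) in the differences between responses. The causes were not tested.

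Over all genes, 21 libraries lowered the calls between the times from 5805 to 3745 in DMSO and from 5691 to 3646 with MM401, and between the waters from 147 to 19, where the block gave 172, the length correction 232, DESeq2 275 and the groups alone 337. For MM401 against DMSO in water 14 became 162 with DESeq2, 4 with plain totals and 0 with 21 libraries or the groups alone, and after 1 h 1 became 14 with DESeq2, 5 with the length correction and 4 with the block. Counting error at the smallest count was 3.79% for Kdm1b, beside a biological coefficient of variation of 5.35%, and at most 1.58% for the other 4 members (4.56% to 5.96%).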
